A study of Mus musculus with 5 samples.

Results

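The genes described here encode the subunits of the mitochondrial respiratory chain and of the ATP synthase. Members were nuclear genes whose symbols begin with Nduf (complex I), Uqcr (complex III), Cox4 to Cox8 (complex IV) or Atp5 (complex V, the ATP synthase), together with Sdha, Sdhb, Sdhc and Sdhd (complex II). Each had to be read by a probe set annotated to that gene alone. This symbol rule used no measured value and found 89 of the 22059 genes tested: 42 for complex I, 4 for complex II, 8 for complex III, 17 for complex IV and 18 for complex V. Since the rule goes by symbol, it also took in 8 assembly factors of complex I (the Ndufaf genes), the pseudogenes Atp5c1-ps and Uqcrh-ps1, the supercomplex factor Cox7a2l and Ndufa4l2, the hypoxia-inducible paralogue of Ndufa4. A further 9 genes with matching symbols (Cox6c, Ndufb2, Ndufb4, Ndufb4b, Ndufb4c, Ndufs5-ps, Ndufs6, Ndufs6b and Uqcr10) shared all their probe sets with other symbols and were not counted.

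The respiratory chain oxidises NADH at complex I and succinate at complex II, hands the electrons to complex III through coenzyme Q, and passes them through cytochrome c to complex IV, where oxygen is reduced to water. Complexes I, III and IV pump protons across the inner mitochondrial membrane, and the ATP synthase uses their return to make ATP. Most subunits are nuclear genes that must be expressed in step with the few encoded in mitochondrial DNA, and the transcription factors NRF1 and GABPA with their coactivator PGC-1alpha (Ppargc1a) are known regulators of many of them. Astrocytes have a working chain, although they are known for covering much of their energy need by glycolysis.

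RNA came from cells labelled as primary cortical astrocytes of newborn FVB mice heterozygous for a transgene, either wild-type LRRK2 (LRRK2-WT, 2 arrays) or the G2019S form of this kinase that is linked to Parkinson's disease (LRRK2-GS, 3 arrays). All cells of both genotypes carried a transgene and were exposed to tunicamycin, which blocks N-linked glycosylation and stresses the endoplasmic reticulum, at 0.2 μg/ml for 3 h by the sample labels, while a legend of the study gives a lower dose and its text a longer time. Nothing in the sources used here says which promoter drives the transgene or whether the arrays of a genotype came from separate cultures, so that p-values measure the spread between arrays, which may be technical. Untreated cells were not analysed here, and the comparison therefore asks whether these genes differed between the genotypes under stress, not whether stress changed them.

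The 5 arrays had medians of 3.26 to 3.28 on the deposited log2 scale and correlated with each other at 0.986 to 0.994 over the tested probe sets. A level was called background when it lay at or under 3.35, a level under which 95% of 1090 olfactory receptor probe sets lay. The labelled cell type and the markers did not go together. Of 19 astrocyte markers 12 lay above background and 4 above the 90th percentile of all tested probe sets (6.42), and the water channel Aqp4, a defining astrocyte gene, had a mean of 2.75, whereas all 18 hepatocyte markers lay above background and 17 above that percentile, with albumin (Alb) at 12.63. The log2 of the summed linear level of the astrocyte markers was 10.56 to 10.79 on the LRRK2-WT arrays and 10.10 to 10.79 on the LRRK2-GS arrays, and that of the hepatocyte markers was 15.74 to 15.75 and 15.63 to 15.74. The astrocyte sum rests largely on the 4 markers above that percentile (Ndrg2, Aldh1l1, Slc4a4 and Glul), with others such as Slc1a3 and S100b at background. The female-specific transcript Xist was lower on the LRRK2-GS arrays by 5.73 and the Y-linked Eif2s3y higher by 4.24 on the log2 scale, so that genotype and sex cannot be told apart. In RNA from whole cultures, fewer cells of a type and less RNA per cell cannot be told apart either.

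Transcript levels of the respiratory chain and ATP synthase genes did not differ detectably between arrays of the 2 genotypes. No member passed the threshold of an adjusted p of 0.05 with more than 1.5-fold in limma (0 of 89, against 0% of all 23396 tested probe sets) or in the methods' t-test. No member reached an unadjusted p of 0.05 in either test, against 1.13% of tested probe sets that did so with a higher and 0.962% with a lower level in LRRK2-GS in limma. No member differed by more than 1.5-fold, which 0.957% of tested probe sets did. The smallest adjusted p of any member was 0.826 in limma and 0.755 in the methods' t-test.

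The differences (log2 level in LRRK2-GS minus that in LRRK2-WT throughout) were small in both directions. They were above 0 for 40 members, below 0 for 47 and 0 for Atp5c1 and Ndufaf5, whose 5 values were identical, and their median was -0.010 against a median of 0.00 over all tested probe sets. By complex the medians were -0.021 for complex I, -0.013 for complex II, -0.011 for complex III, 0.031 for complex IV and -0.0051 for complex V. Each of these lay closer to 0 than the spread between arrays of one genotype, whose SD of the per-array median was 0.058, 0.13, 0.085, 0.044 and 0.068 for complexes I to V. Of the 89 members, 75 lay above background, and among these the differences ran from -0.24 to 0.18 with a median of -0.023. The 14 members at or under background (Ndufa4l2, Ndufaf5, Ndufs5, Cox4i2, Cox6b2, Cox7a1, Cox7b2, Cox7c, Cox8b, Cox8c, Atp5g1, Atp5j2 and both pseudogenes) carry little signal and include those with the largest differences of all, Cox7c at -0.37 and Atp5g1 at 0.28.

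For most members the interval of the difference was narrow enough to bound it. The 95% interval lay within 1.5-fold in both directions for 65 of the 89 members (73.0%), as it did for 75% of all tested probe sets. Among members above background it did so for 55 of 75 (73.3%), against 70.9% of tested probe sets above background. The other 10 such members lay at or under background, where a narrow interval says little about a transcript. For the 24 members with a wider interval a difference of more than 1.5-fold was not detectable with 5 arrays and is not excluded. Many values were also tied, which makes a spread of 0 within a genotype no sign of precision. In 51 members (57.3%) 2 or more arrays had one value, against 77.8% of tested probe sets. A tie can leave no sole highest array and no gap between genotypes. The part of ties in the shares of such counts was not tested.

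**Figure D1:**
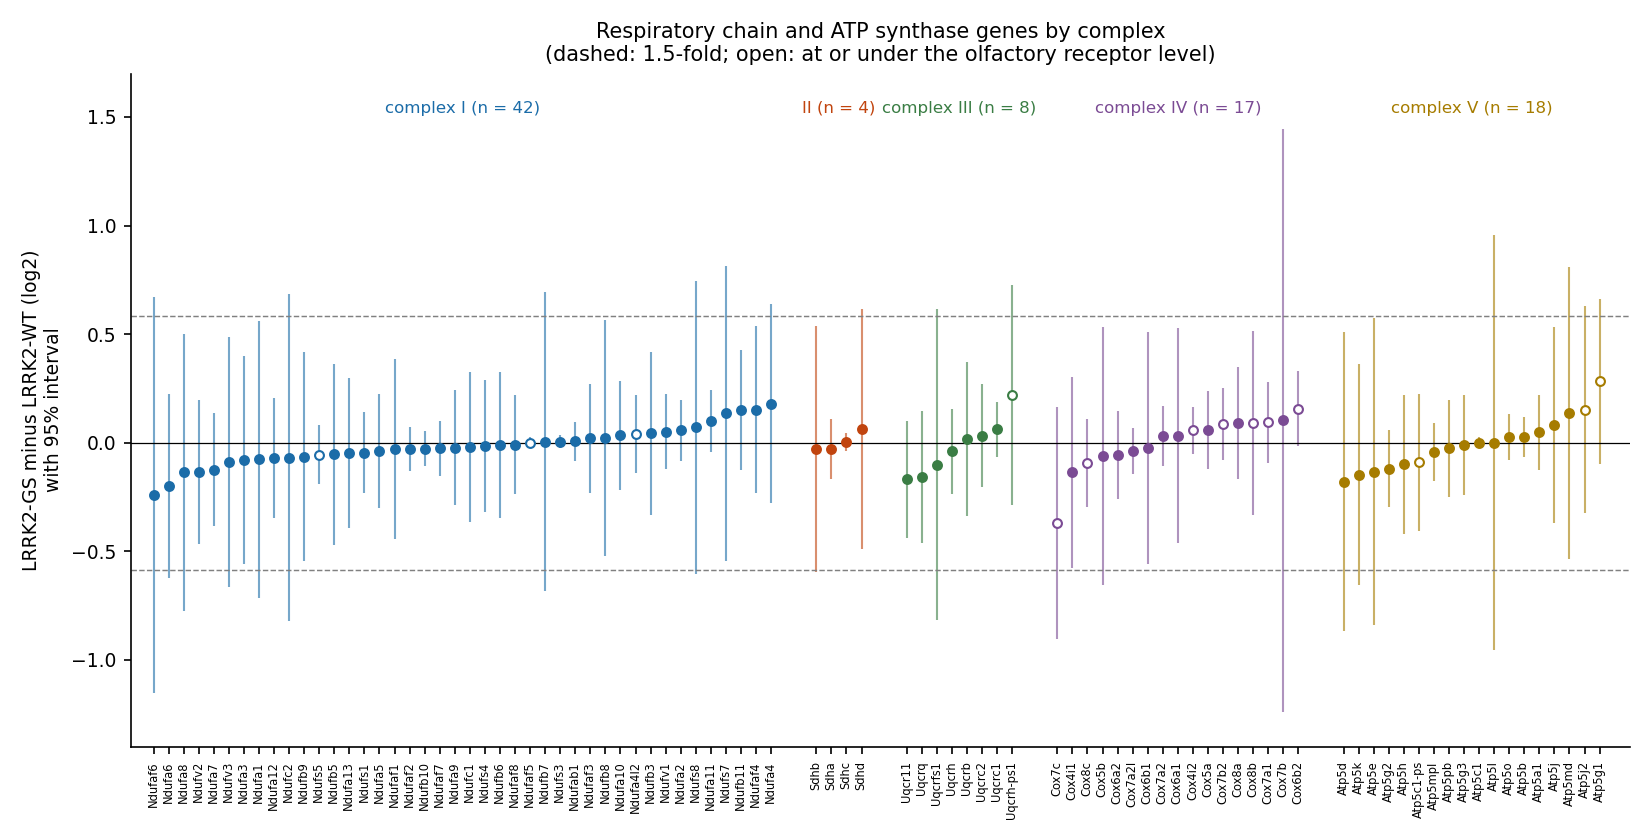
Difference in log2 level (LRRK2-GS minus LRRK2-WT) of the 89 members with its 95% interval from limma, ordered within each complex. Open points lie at or under background and dashed lines mark 1.5-fold. No point lies beyond a dashed line, and 65 intervals stay within both.

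The arrays of the 2 genotypes overlapped for nearly every member. All LRRK2-GS arrays lay above both LRRK2-WT arrays for 4 members (Ndufa11, Ndufa4, Cox6b2 and Cox7b2), against 3.76% of tested probe sets, and below both for Atp5g2 alone, against 3.74%. Cox6b2 and Cox7b2, the testis isoforms of their subunits, are both at background. Ndufa11, an accessory subunit of the membrane arm of complex I, measured 6.85 and 6.83 on the LRRK2-WT arrays and 7.01, 6.87 and 6.94 on the LRRK2-GS arrays. The groups were separate but the distance was small, with a difference of 0.098 (95% interval -0.045 to 0.24, adjusted p = 0.826, limma). A second probe set of Ndufa11 gave a difference of the other sign, -0.40, at a mean of 3.51.

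Within complex I the core subunits, which carry the flavin and the iron-sulfur clusters, showed no common direction. Of the 6 measured, Ndufs3, Ndufs7, Ndufs8 and Ndufv1 had differences above 0 and Ndufs1 and Ndufv2 below 0, with a range of -0.14 to 0.13. Ndufv1, where NADH is oxidised, measured 7.18 and 7.04 on the LRRK2-WT arrays and 7.13, 7.13 and 7.23 on the LRRK2-GS arrays, so that the ranges overlapped. Ndufs1, the largest iron-sulfur subunit, measured 7.18 and 7.23 against 7.08, 7.13 and 7.25. LRRK2-GS arrays 1 and 2 lay below both LRRK2-WT arrays there and array 3 above them.

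Of the 27 accessory subunits that surround the core of complex I, 9 had differences above 0 and 18 below 0, with a median of -0.027. The brightest probe set was that of Ndufb9, an LYR-motif subunit, which measured 9.66 and 9.92 against 9.52, 9.93 and 9.73. Ndufa6, the other LYR-motif subunit here, measured 8.40 and 8.69 on the LRRK2-WT arrays and 8.17, 8.47 and 8.40 on the LRRK2-GS arrays. The difference of -0.20 (95% interval -0.62 to 0.22, adjusted p = 0.826, limma) came with LRRK2-WT arrays that lay 0.29 apart. Ndufa7, a subunit of the matrix arm, measured 4.90 and 5.05 against 4.73, 4.90 and 4.92, and the X-linked membrane arm subunit Ndufb11 measured 3.26 and 3.44 against 3.44, 3.62 and 3.44, close to background. Both pairs of groups overlapped or touched.

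Ndufa4 was named for complex I and is known as a subunit of complex IV. It measured 8.88 and 8.92 on the LRRK2-WT arrays and 8.94, 8.95 and 9.35 on the LRRK2-GS arrays, a difference of 0.18 (95% interval -0.28 to 0.64, adjusted p = 0.826, limma) that rests on LRRK2-GS array 3, the other 2 LRRK2-GS arrays lying within 0.065 of both LRRK2-WT arrays. Its paralogue Ndufa4l2 was at background on both LRRK2-WT arrays (3.29) and on 2 of the 3 LRRK2-GS arrays (3.27 and 3.29), and measured 3.44 on LRRK2-GS array 1. The assembly factors, which help to build complex I and are not part of it, had differences above 0 for 2 genes, below 0 for 5 and 0 for Ndufaf5. The widest of them was Ndufaf6, at 4.85 and 4.72 against 4.22, 4.34 and 5.06, where LRRK2-GS arrays fell on both sides of the LRRK2-WT arrays.

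Complex II is known as the one complex with no subunit from mitochondrial DNA, and all its 4 subunits were measured. Sdha, the flavoprotein that oxidises succinate, measured 8.68 and 8.63 on the LRRK2-WT arrays and 8.58, 8.59 and 8.70 on the LRRK2-GS arrays, a mean of 8.65 ± 0.034 (SD, n = 2) against 8.62 ± 0.065 (SD, n = 3). Sdhb, the iron-sulfur subunit, measured 7.28 and 7.25 against 7.09, 7.05 and 7.56. The membrane anchor Sdhc measured 6.999 on both LRRK2-WT arrays and 6.999, 6.988 and 7.019 on the LRRK2-GS arrays. LRRK2-GS array 3 gave the highest value of the 5 for each of them. So did it for the second membrane anchor, Sdhd, with 7.14 and 6.90 against 6.99, 6.89 and 7.37. The differences of the 4 genes were between -0.031 and 0.062, with adjusted p-values of 0.877 to 1.00 (limma), and the intervals of Sdha and Sdhc lay within 1.5-fold.

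In complex III, which passes electrons from coenzyme Q to cytochrome c, 4 members had differences above 0 and 4 below 0. The core protein Uqcrc1 measured 7.76 and 7.76 against 7.87, 7.75 and 7.85, and Uqcrc2 measured 8.29 and 8.35 against 8.24, 8.34 and 8.47, with differences of 0.062 and 0.032. Among the small subunits Uqcr11 measured 5.61 and 5.38 against 5.24, 5.35 and 5.38, and Uqcrq 6.03 and 5.98 against 5.71, 5.83 and 6.01, with differences of -0.17 and -0.16 (adjusted p = 0.826 for each, limma). For Uqcrq the LRRK2-GS arrays 1 and 2 lay below both LRRK2-WT arrays and array 3 lay between them. The small subunit Uqcrb, the brightest of this complex, measured 9.67 on both LRRK2-WT arrays and 9.55, 9.62 and 9.89 on the LRRK2-GS arrays. The Rieske iron-sulfur protein Uqcrfs1 ranged from 4.87 to 5.51 over the 5 arrays and overlapped between genotypes.

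In complex IV, where several subunits come in a common form and a form known from particular tissues, the common forms were all well above background. Cox4i1 measured 7.65 and 8.03 against 7.57, 7.75 and 7.79, and Cox6a1 measured 9.61 and 10.01 against 9.98, 9.68 and 9.86. In both the genotypes overlapped, and the LRRK2-WT arrays alone lay 0.38 and 0.40 apart. Cox6b1 measured 6.84 and 6.64 against 6.64, 6.52 and 6.999. Cox7a2 measured 8.08 on both LRRK2-WT arrays and 8.07, 8.07 and 8.19 on the LRRK2-GS arrays, and Cox8a measured 7.27 and 7.28 against 7.32, 7.26 and 7.51. These 2 genes differed by 0.030 and 0.091, and for each the highest value was on LRRK2-GS array 3. Subunit 5A (Cox5a) measured 7.77 and 7.75 against 7.77, 7.77 and 7.92, with an identical value on LRRK2-WT array 1 and LRRK2-GS arrays 1 and 2. The interval of the difference lay within 1.5-fold for each of these 6 genes.

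Of the 7 tissue forms of complex IV subunits, 6 lay at or under background. The heart and skeletal muscle forms Cox7a1 and Cox8b had means of 3.05 and 2.18, the testis forms Cox6b2, Cox7b2 and Cox8c had means of 3.14, 1.28 and 2.12, and Cox4i2, known from lung, had a mean of 3.10. The exception was Cox6a2, the heart and skeletal muscle form of subunit 6A, at 3.804 on both LRRK2-WT arrays and 3.804, 3.63 and 3.804 on the LRRK2-GS arrays. It lay 0.42 above the background level on average. Cox6b2 had the smallest p of any member, at 2.96 and 3.12 against 3.16, 3.23 and 3.21 (difference 0.16, 95% interval -0.017 to 0.33, adjusted p = 0.826, limma), but every one of these values is below background. Subunit 7C (Cox7c), which has no tissue form here, also lay below background at 2.65 and 2.48 against 2.12, 1.98 and 2.48.

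**Figure D2:**
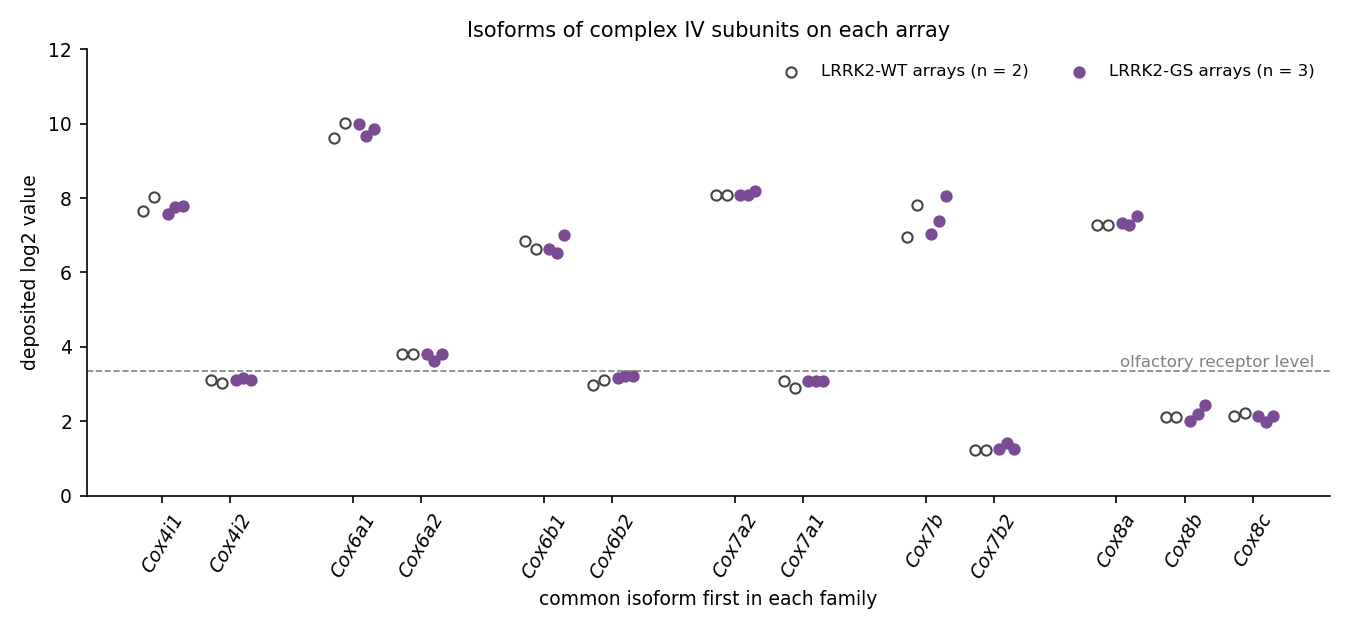
Deposited log2 values of common and tissue forms of complex IV subunits on each array (open: LRRK2-WT, n = 2, filled: LRRK2-GS, n = 3), with the olfactory receptor level of 3.35 dashed. The 6 common forms lie above the line on every array, and 6 of the 7 tissue forms below it on average.

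The ATP synthase has a catalytic head, a rotating stalk and ring, and an outer stalk that holds the head still. The alpha and beta subunits of the head, Atp5a1 and Atp5b, measured 9.42 and 9.58 against 9.53, 9.53 and 9.58, and 10.14 and 10.22 against 10.21, 10.19 and 10.21. They spanned 0.16 and 0.087 over the 5 arrays, with differences of 0.048 (95% interval -0.12 to 0.22) and 0.026 (95% interval -0.066 to 0.12). The membrane subunit DAPIT (Atp5md) was more variable, at 8.77 and 9.29 against 9.02, 9.05 and 9.42. The small membrane subunit Atp5mpl measured 5.51 and 5.64 on the LRRK2-WT arrays and 5.53 on each LRRK2-GS array.

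Subunit c of the rotating ring is made from 3 genes that encode the same mature protein and differ in their import sequences. Atp5g2 measured 8.22 and 8.37 on the LRRK2-WT arrays and 8.22, 8.20 and 8.12 on the LRRK2-GS arrays, a difference of -0.12 (95% interval -0.30 to 0.059, adjusted p = 0.826, limma). It was the one gene with every LRRK2-GS array below both LRRK2-WT arrays, although the closest pair, LRRK2-WT array 1 and LRRK2-GS array 1, lay 0.0080 apart, and its second probe set had a difference of -0.11. Atp5g3 measured 6.77 on both LRRK2-WT arrays and 6.71, 6.67 and 6.89 on the LRRK2-GS arrays. Atp5g1 lay around background at 2.93 and 3.14 against 3.36, 3.14 and 3.46, with a difference of 0.28 (95% interval -0.10 to 0.66, adjusted p = 0.826, limma).

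The outer stalk subunits kept the same picture. Atp5pb, the b subunit, measured 7.89 and 7.92 against 7.77, 7.87 and 7.998, and Atp5h, the d subunit, measured 8.57 on both LRRK2-WT arrays and 8.32, 8.45 and 8.64 on the LRRK2-GS arrays. For both, LRRK2-GS arrays 1 and 2 lay below the LRRK2-WT arrays and array 3 above them. The F6 subunit Atp5j and the OSCP subunit Atp5o, which joins the head to the outer stalk, had differences of 0.080 and 0.025. The e subunit Atp5k, which takes part in joining ATP synthase dimers, measured 7.22 and 7.20 against 7.16, 6.77 and 7.26, and the epsilon subunit Atp5e of the rotating stalk measured 6.35 and 6.64 against 6.07, 6.31 and 6.72.

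As the genotypes also differed in sex-linked transcripts, the X-linked members are given apart. They are the complex I subunits Ndufa1 and Ndufb11 and the complex IV subunit Cox7b. Ndufa1 measured 7.01 and 6.97 on the LRRK2-WT arrays and 6.88, 6.61 and 7.25 on the LRRK2-GS arrays. The differences of the 3 genes were -0.077, 0.15 and 0.10, with intervals that each include 0.

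Differences between single arrays overlapped in size within and between genotypes. The median absolute difference of the members was 0.068 between the LRRK2-WT arrays and 0.12, 0.15 and 0.12 between pairs of LRRK2-GS arrays, and 0.077 to 0.11 between arrays of different genotype. A difference of over 1.5-fold occurred 9 times over the 6 pairs of arrays of different genotype. Within a genotype it occurred 14 times over 4 pairs, in 10 members (Ndufa1, Ndufaf6, Ndufb7, Ndufc2, Ndufs7, Ndufs8, Cox7b, Atp5d, Atp5e and Atp5l). In each of these 14 cases the higher array was LRRK2-GS array 3 or LRRK2-WT array 2. Per pair of arrays of one genotype there were 0 to 5 such cases among the 89 members, against 501 to 1480 among the 23396 tested probe sets. Per pair of different genotype there were 0 to 3, against 722 to 1206. The subunit 7B gene Cox7b, on the X chromosome, measured 6.95 and 7.82 on the LRRK2-WT arrays and 7.02, 7.38 and 8.05 on the LRRK2-GS arrays. It spanned 1.02 over the LRRK2-GS arrays and 0.87 over the LRRK2-WT arrays, and the genotype means differed by 0.10 (95% interval -1.24 to 1.45). The dimer-forming g subunit Atp5l measured 7.12 and 7.85 against 7.22, 7.41 and 7.83, so that its genotype means differed by 0.00080. Atp5d, the delta subunit of the rotating stalk, measured 6.31 and 7.001 on the LRRK2-WT arrays and 6.48, 6.47 and 6.48 on the LRRK2-GS arrays. Leaving out LRRK2-WT array 1 gave a difference of -0.53 and leaving out array 2 gave 0.17, each with a single array standing for the genotype. With all 5 arrays the difference was -0.18, and that of a second probe set of Atp5d was 0.068.

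**Figure D3:**
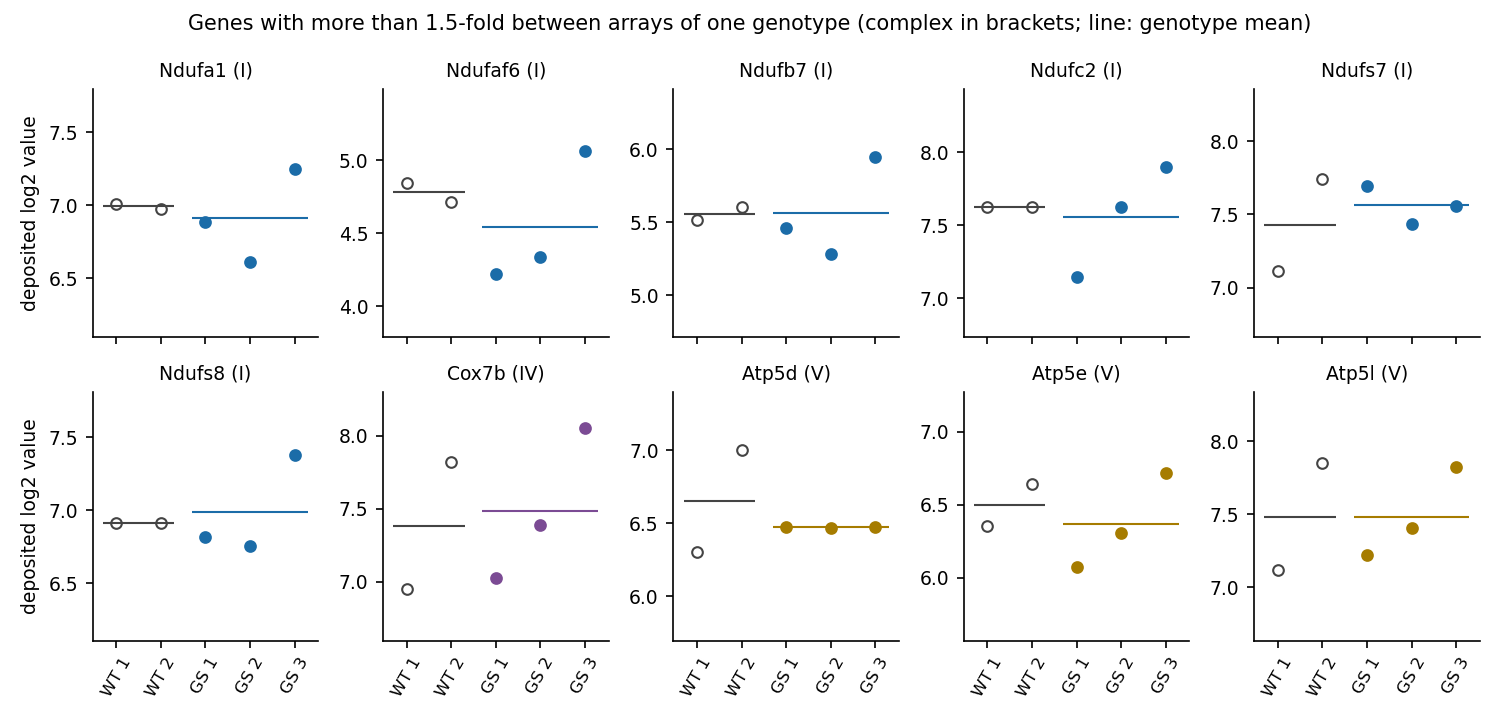
Deposited log2 values on each array of the 10 members that differed by more than 1.5-fold between 2 arrays of one genotype, with the genotype means as lines (open: LRRK2-WT, n = 2, filled: LRRK2-GS, n = 3). Every panel spans the same range on the vertical axis, and its highest point is LRRK2-WT array 2 or LRRK2-GS array 3.

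As read by the probe set with the highest mean, the members moved together on LRRK2-GS array 3. This array was singled out after the values had been seen, so that the counts that follow describe it and test nothing. Its value lay above the mean of the 5 arrays for 71 of the 89 members and for 64 of the 75 above background (85.3%), against 42.9% of all 12869 tested probe sets above background. It was the sole highest array for 44 members (49.4%), against 17.7% of tested probe sets, which were tied more often. It was the sole lowest for Atp5g2 alone. Other probe sets of the same genes mostly lacked this pattern. Among the 9 members with more than 1 probe set, array 3 lay above the mean of the second one for Atp5d and Ndufa12 alone. For the chosen probe set it did so for Atp5e, Atp5h, Cox5b, Cox7b, Ndufa11 and Ndufa8. The second probe sets of Atp5h, Cox5b and Cox7b were at background. That of Ndufa8 was not, and measured 5.319 on array 3, its lowest value, against a mean of 5.497. LRRK2-GS arrays 1 and 2 each lay below the mean for 62 members. From array 1 to array 3 the members differed by a median of 0.14, with 65 higher and 12 lower on array 3, and from array 2 to array 3 by 0.11, with 67 higher and 13 lower.

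This pattern was present in each complex. LRRK2-GS array 3 lay above the mean for 35 of 42 members of complex I, 4 of 4 of complex II, 6 of 8 of complex III, 14 of 17 of complex IV and 12 of 18 of complex V. It was not shared by bright probe sets at large. Among the 44 members above the 90th percentile of level, array 3 was above the mean for 40 (90.9%), while of all 2340 tested probe sets in that range it was above the mean for 41.0%. After quantile normalization and after cyclic loess, array 3 lay above the mean for 93.3% of the members above background in both. Over all tested probe sets, those at background included, the shares were 45.8% and 47.4%. The astrocyte and hepatocyte marker sums were also higher on array 3 (10.79 and 15.74) than on LRRK2-GS arrays 1 (10.10 and 15.63) and 2 (10.45 and 15.65). They were 10.79 and 15.74 on LRRK2-WT array 1, which lay above the mean for 38 of the 89 members. On LRRK2-WT array 2 they were 10.56 and 15.75, with 53 members above the mean. The astrocyte sum rests largely on Ndrg2, Aldh1l1, Slc4a4 and Glul and is not a measure of astrocyte content. The part of the marker sums in this result was not tested.

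**Figure D4:**
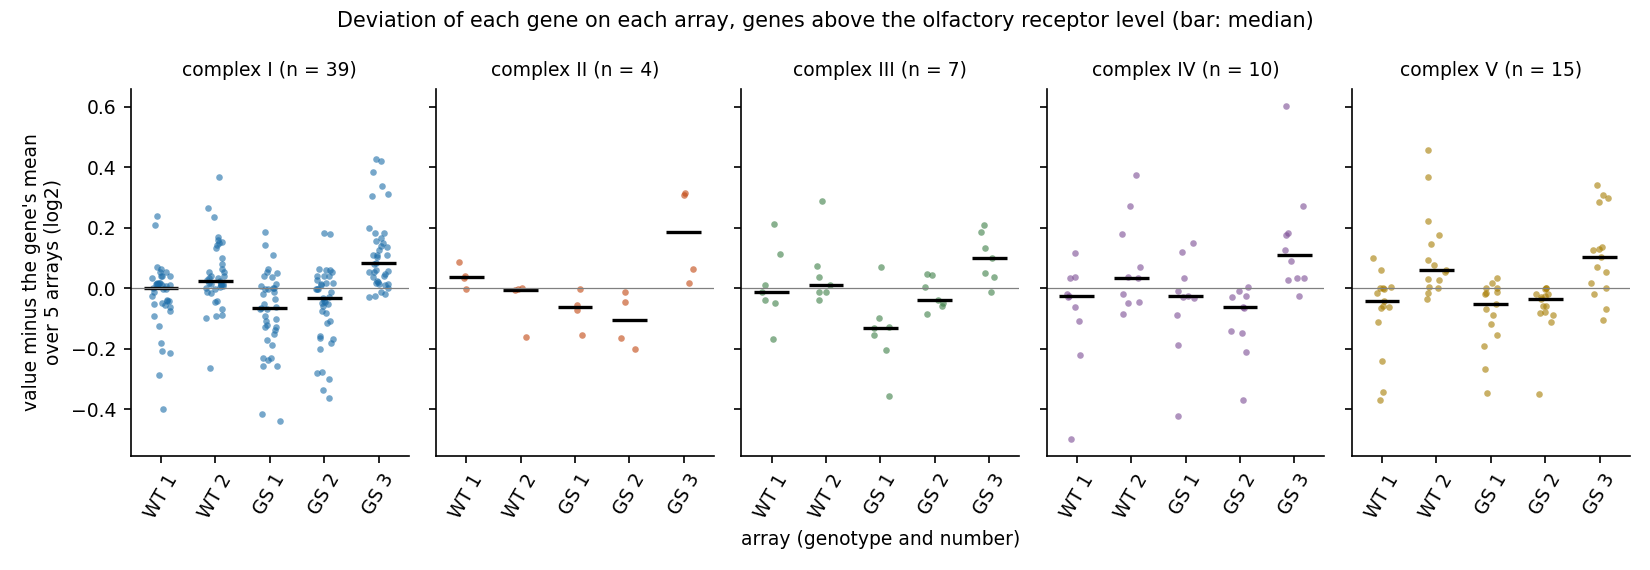
Deviation of each member above background from its own mean over the 5 arrays (log2), by complex and array, with the median as a bar. On LRRK2-GS array 3 the bar lies above 0 in each of the 5 complexes, and on LRRK2-GS arrays 1 and 2 below 0.

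Without LRRK2-GS array 3 the comparison between genotypes leaned to lower levels in LRRK2-GS, but no member was called. As this array was singled out for its high values in most members, leaving it out had to lower their LRRK2-GS means. The values without it therefore describe these arrays and test nothing. The median difference of the members became -0.066, with 25 above 0 and 61 below 0, and the complex medians ran from -0.075 for complex III to -0.018 for complex IV. LRRK2-GS arrays 1 and 2 both lay below both LRRK2-WT arrays for 23 members, against 7.55% of tested probe sets, and above both for 5 (Ndufa11, Ndufa4, Uqcrh-ps1, Cox6b2 and Cox7b2), against 8.55%. Tested probe sets were tied more often than members, and the part of ties in these shares was not tested. An unadjusted p under 0.05 with a lower level was reached by 6 members (Ndufaf6, Ndufs8, Sdhb, Uqcrq, Cox7c and Atp5g3), against 1.91% of tested probe sets, and with a higher level by none, against 2.01%. The smallest adjusted p of a member was 0.671 in this setting (limma). Other left-out arrays gave other directions. Without LRRK2-GS array 2, 4 members reached an unadjusted p of 0.05 with a higher level and 0 with a lower one (1.59% and 1.35% of tested probe sets). With 1 LRRK2-WT array the counts were 1 higher and 6 lower without array 1 (5.57% and 5.05%), and 7 higher and 1 lower without array 2 (5.41% and 4.91%). Without LRRK2-GS array 3 the difference of Sdhb went from -0.031 with all 5 arrays to -0.20, and that of Uqcrq from -0.16 to -0.24.

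Promoter windows were searched for the DNA letters that known regulators of these genes bind. RefSeq promoter windows of GRCm38.p6, 300 bases from 250 before to 50 after the annotated start, were matched to 72 of the 89 members, and 8 strings were searched on both strands, chosen after several lengths had been looked at. The NRF1 core GCGCATGC was found in 16.7% of members and in 4.25% of 15267 tested protein-coding genes with a window, and the overlapping string CGCATGCG in 15.3% and 2.98%. One or both were present in 13 members (18.1%) against 4.40%. The ETS string CCGGAAG, read by GABPA, was found in 26.4% of members against 13.4%, and the longer CCGGAAGT that contains it in 6.94% against 5.92%. The YY1 string GATGGCGG was found in 8.33% against 2.71%. The GC box GGGCGG (47.2% against 52.0%), CCAAT (41.7% against 41.9%) and TATAAA (11.1% against 14.2%) had shares close to those of other genes. No test was made of these shares.

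The 13 members with an NRF1 match belong to all 5 complexes. They are shown as 30 bases of the gene's own strand, 5′ to 3′, with the matched letters in capitals, because the run GCGCATGCGC recurs among genes of different complexes.
Ndufa6 (chr15:82354356-82354385, minus strand): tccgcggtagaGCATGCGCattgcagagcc
Ndufa8 (chr2:36049329-36049358, minus strand): gtcgctggagaCGCATGCGCagatggtacc
Ndufa11 (chr17:56717691-56717720, plus strand): acctgcactgcGCGCATGCGCgcacgcctt
Ndufaf4 (chr4:24897959-24897988, plus strand): cccagatgtctGCGCATGCGCctgtgcgga
Ndufaf5 (chr2:140170651-140170680, plus strand): tagtcccgttgGCGCATGCGCctaatagaa
Sdhb (chr4:140961206-140961235, plus strand): aagcccagtggGCATGCGCcctacgggccg
Uqcr11 (chr10:80406808-80406837, minus strand): gatcgccttcaCGCATGCGCtatacgtctg
Uqcrc1 (chr9:108936667-108936696, plus strand): gactccgctctGCGCATGCGCagcgcggct
Cox6a1 (chr5:115349102-115349131, minus strand): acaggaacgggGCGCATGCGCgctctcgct
Atp5g2 (chr15:102671071-102671100, minus strand): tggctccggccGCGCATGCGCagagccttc
Atp5j (chr16:84835105-84835134, minus strand): aggccagaataCGCATGCGtacagtgcagt
Atp5k (chr5:108434431-108434460, minus strand): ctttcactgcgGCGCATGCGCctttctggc
Atp5l (chr9:44920963-44920992, minus strand): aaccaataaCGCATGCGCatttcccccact

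In most of these genes the match lies before the annotated start, and in Ndufaf5 and Uqcrc1 it lies after it, beginning at bases 17 and 31. Those with an NRF1 match had a median difference of 0.00 between genotypes, and LRRK2-GS array 3 lay above the mean for 9 of 13, against 48 of the 55 without a match (tissue forms of complex IV and pseudogenes left out). With an ETS match the count was 18 of 19, against 39 of 49. These counts are a description, and a match is not a measured binding site.

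The YY1 string was found in Atp5j, Ndufa7, Ndufa9, Ndufaf8, Ndufs4 and Ndufs7, in each on the gene's own strand. In Ndufs7, an iron-sulfur subunit next to the quinone site, and in Ndufs4, an accessory subunit whose loss is known to cause Leigh syndrome, it lies after the annotated start, beginning at bases 27 and 38. These 2 are shown as examples of one string in a core and an accessory subunit.
Ndufs7 (chr10:80249464-80249493, plus strand): gccgaggccaaGATGGCGGcgctggcgggt
Ndufs4 (chr13:114388045-114388074, minus strand): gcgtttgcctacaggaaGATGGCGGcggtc

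Common and tissue forms of subunit 8 of complex IV, above and below background on these arrays, differed in the promoter letters too. They are shown whole, with the matches to any of the 8 strings on either strand in capitals.
Cox8a (chr19:7217567-7217866, minus strand): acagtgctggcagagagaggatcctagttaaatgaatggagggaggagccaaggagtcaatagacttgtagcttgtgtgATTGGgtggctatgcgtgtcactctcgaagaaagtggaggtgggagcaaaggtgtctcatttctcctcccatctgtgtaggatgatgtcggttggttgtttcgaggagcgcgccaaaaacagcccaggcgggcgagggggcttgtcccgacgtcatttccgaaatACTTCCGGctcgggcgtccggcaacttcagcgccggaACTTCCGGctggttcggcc
Cox8b (chr7:140900397-140900696, minus strand): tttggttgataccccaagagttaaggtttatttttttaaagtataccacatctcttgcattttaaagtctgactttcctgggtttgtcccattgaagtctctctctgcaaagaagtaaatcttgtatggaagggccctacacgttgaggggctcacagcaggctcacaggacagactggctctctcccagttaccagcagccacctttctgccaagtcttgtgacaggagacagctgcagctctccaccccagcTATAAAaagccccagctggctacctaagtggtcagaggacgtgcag

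Cox8a holds the 8-letter ETS string CCGGAAGT on the opposite strand, read here as its reverse complement, at 2 places that begin at bases -6 and 32 counted from the start, and it has 19 CG pairs. Cox8b holds no ETS match and has TATAAA, beginning at base 5, and 2 CG pairs. Over the 4 tissue forms with a window (Cox6b2, Cox7a1, Cox7b2 and Cox8b) the median number of CG pairs was 8.5, against 20 over all 72 members and 16 over tested protein-coding genes. The contrast did not hold in every family. Common forms had more CG pairs for subunits 6B (Cox6b1 17, Cox6b2 10) and 7A (Cox7a2 20, Cox7a1 7). For subunit 7B the common form had fewer (Cox7b 5, Cox7b2 10), and Cox7b holds no ETS match either.

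The other genes of the pathway were taken from lists written for it. None of their genes was called (0% of tested probe sets), and none reached an unadjusted p of 0.05 in limma, as 2.09% of tested probe sets did in either direction: 0 of 12 for further genes of complexes II and III and cytochrome c, 0 of 9 for other complex I assembly factors, 0 of 23 for complex IV assembly factors, 0 of 6 for ATP synthase assembly factors, 0 of 12 for coenzyme Q synthesis, 0 of 11 for adenine nucleotide and phosphate carriers and uncoupling proteins, and 0 of 19 for regulators of mitochondrial transcription and biogenesis. The list medians lay between -0.052 and 0.071. Cytochrome c (Cycs) measured 9.10 and 9.52 against 9.39, 9.60 and 9.39, and cytochrome c1 of complex III (Cyc1) measured 6.55 and 6.42 against 6.23, 6.35 and 6.62. Both overlapped between genotypes. Of the transcription factors, Nrf1 measured 5.004 on both LRRK2-WT arrays and 4.97, 5.004 and 4.98 on the LRRK2-GS arrays, Gabpa 6.73 on every array but LRRK2-GS array 3 (6.55), and the mitochondrial transcription factor Tfam 5.22 and 5.22 against 5.02, 5.33 and 5.22.

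The coactivator Ppargc1a was the one gene of these lists beyond 1.5-fold. It measured 5.64 and 5.98 on the LRRK2-WT arrays and 3.88, 5.27 and 5.33 on the LRRK2-GS arrays, a difference of -0.99 (95% interval -2.63 to 0.66, adjusted p = 0.826, limma). All LRRK2-GS arrays lay below both LRRK2-WT arrays, and array 1 lay 1.38 below the next. This order was shared by 5 of the 92 genes of these lists, the others being Coq2, Acad9, Uqcc3 and Surf1, against 3.74% of tested probe sets, and the opposite order by 0, against 3.76%. Coq2, a coenzyme Q synthesis gene, measured 5.04 and 4.60 against 4.25, 4.58 and 4.08, and the complex I assembly factor Acad9 measured 5.57 and 5.43 against 5.28, 5.35 and 5.41. None of the 5 passed the threshold. None of the 13 genes encoded in mitochondrial DNA was read by a named probe set, so that the nuclear and mitochondrial parts of the chain could not be compared here.

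Several members are read by probe sets that disagree in level, and this bounds what the highest one stands for. Of the 9 members with more than 1 probe set, Cox5b was read at 7.69 by one and at 2.68, identical on all arrays, by the other. For Atp5h the means were 8.51 and 3.31, and for Cox7b 7.44 and 2.48. Which transcript each probe set reads was not tested. With a gene's probe sets averaged in place of the highest, the median difference of the members was -0.014 and no member was called.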

How the data were processed

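The authors hybridised cDNA to Affymetrix Mouse Gene 2.0 ST arrays and exported it with the Affymetrix Command Console software. The authors deposited 1 table of log2 expression values for 33640 probe sets, and how these were corrected, summarized and normalized was not stated in the sources used here. No further normalization was applied. Probe sets with 1 gene symbol in the platform annotation (23396, of which 23203 were matched by gene ID to GRCm38.p6) were tested; 1812 with several symbols and 8432 with none were left out. The probe set with the highest mean stood for each gene.

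LRRK2-GS was compared with LRRK2-WT in R 4.3.3 with limma 3.58.1 (lmFit, eBayes at default settings, no block, 3 residual and 0.595 prior degrees of freedom). P-values were two-sided and adjusted by Benjamini-Hochberg over the 23396 probe sets. The call rule was that of the methods, over 1.5-fold with an adjusted p up to 0.05. The fit was tested on simulated data. Intervals are 95% intervals of the same model. The number of arrays limits the precision.

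Genes were named by rule: per complex the 3 highest means and the 3 smallest p, members over 1.5-fold or separate between genotypes by over 0.3, all Sdh genes, the isoform families of complex IV with Ndufa4 and Ndufa4l2, per other list the 3 smallest p, and the regulators, cytochromes and marker genes given. Members named outside it were singled out after their values had been seen. The members, the lists and the tests were chosen with earlier results of these data known. Alternatives were array weights, a robust prior with a trend, quantile and cyclic loess normalization, leaving out dim probe sets, a block by replicate number, all 33640 probe sets, averaging a gene's probe sets, other choices of members, the methods' t-test and each array left out. Figures were drawn with matplotlib 3.10.9.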

Additional observations from a re-analysis of the deposited data

How the results depend on the processing

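No member was called under any alternative, and the median differences of the members and of each complex moved by less than the SD between arrays except under the settings given here. With the replicate number as a block, 8 members (8.99%) reached an unadjusted p of 0.05 in limma, against 0 without it. The share of all tested probe sets rose as well, from 2.09% to 6.001%. The median difference became -0.066 over all members and -0.018 for complex IV. Nothing in the sources used here says whether same-numbered arrays belong together. Their deviations from the genotype means correlated over all tested probe sets at -0.13 (array 1) and 0.088 (array 2) and over the members at 0.21 and 0.10. With 2 LRRK2-WT arrays the deviation of one mirrors that of the other, so that these correlations cannot decide on a pairing. In this fit LRRK2-GS array 3 has no partner and adds nothing to the difference. Leaving out 1 array in turn gave 0 to 28 called probe sets (26 without LRRK2-WT array 1 and 28 without array 2, each with a single array for that genotype, assumed to vary like the others), 0 to 8 members at an unadjusted p of 0.05, median differences of -0.066 to 0.032 over all members and of -0.018 to 0.076 for complex IV, with the lowest without LRRK2-GS array 3 and the highest without LRRK2-GS array 2. Without LRRK2-WT array 1 the difference was -0.11 for Atp5mpl and 0.19 for Cox7a1, with a single array standing for the genotype. That of Ndufaf4 was 0.35 without LRRK2-WT array 2 and -0.041 without array 1. The causes were not tested. By the methods' t-test 0 probe sets were called, 1 passed an adjusted p of 0.05 alone, and 33 passed an unadjusted p of 0.05 with over 1.5-fold. Over 38 named members, 37 of 485 uncalled values changed sign, in 20 genes. The depth of an array is not known, and the 14 members at or under background carry little signal.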
